A study of Mus musculus with 22 samples.

Results

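The B lineage is held in place by a small set of transcription factors, and 10 of them were followed here: Pax5, Ebf1, Foxo1, Bach2, Ikzf1, Ikzf3, Irf4, Irf8, Spib and Spi1. They were found by gene symbol in the table of each precursor stage, in a set drawn up with earlier results of these data known, and are 10 of the 23129 genes listed at all 3 stages. All 10 passed the filter on low values at every stage. The study asked what LIN28B, an RNA-binding protein of fetal blood cells, does when it is switched on in adult B cell precursors. Tet-LIN28B mice carry Flag-tagged human LIN28B cDNA under a tetracycline operator at Col1a together with the Rosa26 rtTA*m2 transactivator, 1 allele each. Littermate controls carry Rosa26 rtTA*m2 but no LIN28B transgene, and both genotypes were adult mice, of either sex, given doxycycline chow at 200 mg/kg for 10 days. The operator is switched on wherever the transactivator is made, so LIN28B was not limited to B cells.

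CD93+ IgM- bone marrow cells, depleted of CD3+, TER119+ and GR1+ cells, were sorted as large Pro-B (cKIT+), large Pre-B (cKIT-, high forward scatter) and small Pre-B cells (cKIT-, low forward scatter). Large Pro-B cells were measured in 5 tet-LIN28B and 4 control mice, large Pre-B cells in 4 and 3, and small Pre-B cells in 3 and 3. The 22 libraries came from 15 mice, and 7 of these contributed 2 libraries, 1 of each large population.

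As background, EBF1 and PAX5 open and activate B cell genes, and PAX5 also silences genes of other lineages. FOXO1 is active when growth factor and PI3K signalling are low, and supports the recombination genes Rag1 and Rag2. Ikaros (Ikzf1) and Aiolos (Ikzf3) restrain proliferation after the pre-B cell receptor has signalled, and IRF4 and IRF8 together help to open the light chain loci. PU.1 (Spi1) and SPI-B (Spib) are related ETS factors that bind composite sites with IRF4 or IRF8, and BACH2 is a repressor that delays the plasma cell programme.

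The promoters of 4 factors that differed between genotypes are shown first, because several of these proteins act on each other's genes. RefSeq entries of GRCm38.p6 matched 8 of the 10 factors, all except Ikzf3 and Spi1, with 11 start sites. The 250 bases before each start were searched on both strands for 4 motifs of these factors and of the octamer proteins, which would stand in capitals where they match. Bach2 is shown as the factor with the largest difference between genotypes, Ebf1 as a lineage-specifying factor that was lower in tet-LIN28B cells, and Irf4 and Irf8 as a related pair that differed in opposite directions.
Bach2, chr4:32417185-32417434, plus strand: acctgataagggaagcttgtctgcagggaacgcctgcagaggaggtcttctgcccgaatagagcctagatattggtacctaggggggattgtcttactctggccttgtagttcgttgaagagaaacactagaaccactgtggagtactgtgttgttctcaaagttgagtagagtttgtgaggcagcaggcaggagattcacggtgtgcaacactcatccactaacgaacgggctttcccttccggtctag
Ebf1, chr11:44617850-44618099, plus strand: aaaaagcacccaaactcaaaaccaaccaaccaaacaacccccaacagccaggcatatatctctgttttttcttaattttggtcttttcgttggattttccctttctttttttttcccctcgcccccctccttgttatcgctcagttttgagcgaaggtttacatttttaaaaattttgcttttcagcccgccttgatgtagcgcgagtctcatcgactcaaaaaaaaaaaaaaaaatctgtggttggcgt
Irf4, chr13:30748983-30749232, plus strand: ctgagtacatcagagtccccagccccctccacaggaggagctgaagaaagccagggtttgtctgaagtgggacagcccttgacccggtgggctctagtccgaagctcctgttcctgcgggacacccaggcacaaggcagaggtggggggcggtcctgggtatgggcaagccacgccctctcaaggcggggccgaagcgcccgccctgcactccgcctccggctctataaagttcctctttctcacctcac
Irf8, chr8:120736108-120736357, plus strand: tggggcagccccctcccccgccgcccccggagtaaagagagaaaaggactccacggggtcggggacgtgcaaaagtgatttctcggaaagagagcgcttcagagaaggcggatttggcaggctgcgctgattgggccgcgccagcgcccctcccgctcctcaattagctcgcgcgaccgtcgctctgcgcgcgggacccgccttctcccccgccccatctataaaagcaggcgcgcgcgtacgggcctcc

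The Bach2 window lies inside the gene's span on chromosome 4 (32238413 to 32586109). The 4 printed windows are in lower case throughout, since none held any of the 4 motifs. Longer IRF, ETS, EBF1 and BACH2 motifs are not described here, although a first search of them did match in the printed Bach2 and Ebf1 windows and in that of Foxo1. Of the other 7 windows, the second starts of Ebf1 and Irf8 each held 1 match to the Ikaros letters TGGGAA, 207 and 242 bases before the start, and 21.6% of the 32851 promoter windows of this length held these letters. The ETS letters GAGGAAGT (2.44% of windows), the FOXO letters TGTTTAC (3.17%) and the octamer ATTTGCAT (1.6%) matched in none of the 11 windows. The ETS and Ikaros letters both hold GGAA, but with a different base before it, so they cannot match at the same GGAA. These matches describe letters and not binding, and an absent match says only that the letters are not in the window.

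Depth, in M reads a library, was 13.9 to 23.3 for large Pro-B, 19.9 to 30.4 for large Pre-B and 32.0 to 51.0 for small Pre-B cells. Lin28b, counted at its mouse symbol although the transgene is human, was above every control library in every tet-LIN28B library at each stage, at 57.0 to 232 against 4.63 to 10.2 normalized counts in large Pro-B cells, 41.9 to 175 against 9.92 to 28.8 in large Pre-B cells and 81.9 to 230.2 against 0 in small Pre-B cells. Lin28b itself passed the limma test between genotypes in small Pre-B cells (adjusted p = 7.7e-05). It did not pass in large Pro-B (limma, adjusted p = 0.29) or large Pre-B cells (adjusted p = 0.45), although its libraries did not overlap there. All 6 defining B lineage markers were detected in every group, and the 7 T cell markers summed to at most 3.88 RPM (reads scaled to a library total of 1 M) in any library. Myeloid markers were uneven among controls, with a summed level of 413 RPM in large Pre-B control 2 and 268 in large Pro-B control 2, against at most 85.3 in any tet-LIN28B library.

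Factors passed the test between genotypes in small Pre-B cells, the resting cells that rearrange their light chain genes. There, 6 of the 10 did so (limma, adjusted p under 0.05 over 14664 genes). Spi1 and Irf8 were higher in tet-LIN28B cells, and Bach2, Irf4, Ebf1 and Ikzf1 were lower. Of all genes tested, 14.4% passed at this stage, 7.34% higher and 7.03% lower. The tet-LIN28B and control libraries of 8 of the 10 factors did not overlap, where 33.9% of all genes showed no overlap. The median log2 fold change over the factors was -0.13, against -0.0024 over all genes tested.

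**Figure D1:**
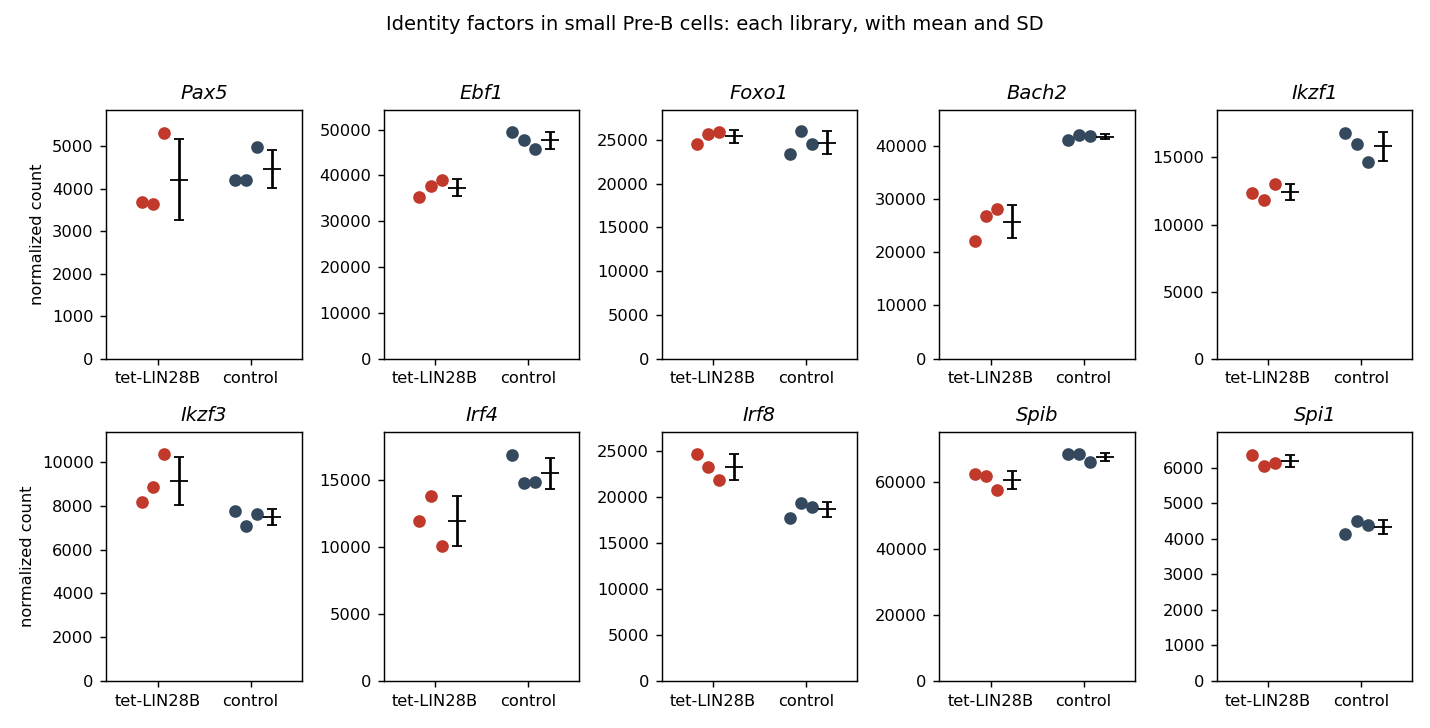
Normalized count (linear axis from 0) of each identity factor in each small Pre-B library, tet-LIN28B left of control, with the mean and SD beside the points (3 libraries a group). The groups of Pax5 and Foxo1 overlap, and those of the other 8 factors are apart, with Bach2 averaging 25706 against 41681.

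Bach2 showed the largest difference of the set. Its normalized count (the read count divided by a size factor of the library) was 22190, 26768 and 28161 in tet-LIN28B small Pre-B cells, against 41093, 42057 and 41894 in control cells. Every tet-LIN28B library was far under every control library, although the tet-LIN28B libraries were spread more widely (SD 3124 against 516). The log2 fold change was -0.70 ± 0.08 (SE, adjusted p = 0.00072).

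Spi1, which encodes PU.1, went the other way. It measured 6361, 6032 and 6138 normalized counts in tet-LIN28B small Pre-B cells and 4125, 4495 and 4373 in control cells. The groups were tight and well apart, and the change was 0.51 ± 0.06 on the log2 scale (SE, adjusted p = 0.00088). Spib, its close relative in B cells, stood at 62675, 61907 and 57594 in tet-LIN28B cells, against 68431, 68488 and 66252 in control cells. These libraries did not overlap either, but the change of -0.16 ± 0.06 on the log2 scale did not pass (adjusted p = 0.103). It passed when each library was rescaled to the same total (-0.19, adjusted p = 0.0366).

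The IRF genes also differed in opposite directions. Irf8 had 24710, 23243 and 21863 normalized counts in tet-LIN28B small Pre-B cells, against 17740, 19341 and 18951 in control cells, a change of 0.32 ± 0.07 on the log2 scale (SE, adjusted p = 0.0113). Irf4 had 11911, 13802 and 10026 in tet-LIN28B cells, against 16820, 14778 and 14842 in control cells, a change of -0.39 ± 0.11 on the log2 scale (SE, adjusted p = 0.0363). Neither gene's groups overlapped. The Irf4 call was the least secure of the 6, being lost without tet-LIN28B replicate 1 (adjusted p = 0.0852) or 3 (0.0599) and without control replicate 1 (0.137), 2 (0.0718) or 3 (0.0793). The Irf8 call was lost without control replicate 1 (adjusted p = 0.0524).

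Ebf1 and Ikzf1 fell to a like extent. Ebf1 measured 35223, 37768 and 39064 normalized counts in tet-LIN28B small Pre-B cells and 49465, 47731 and 45819 in control cells (log2 fold change -0.35 ± 0.06, adjusted p = 0.00538). Ikzf1 measured 12374, 11857 and 13027 in tet-LIN28B cells and 16789, 16005 and 14669 in control cells (-0.35 ± 0.07, adjusted p = 0.00881). In both genes the highest tet-LIN28B library stayed under the lowest control library. Ikzf3, which encodes the related Aiolos, had 8171, 8878 and 10354 in tet-LIN28B cells, against 7754, 7068 and 7648 in control cells. Its groups were apart in the upward direction, by 0.28 ± 0.09 on the log2 scale, without passing (adjusted p = 0.0581). It passed without tet-LIN28B replicate 1 (adjusted p = 0.0353) and with DESeq2 on the recovered reads (adjusted p = 0.0214).

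Pax5 and Foxo1 overlapped between genotypes. Pax5 had 3689, 3641 and 5313 normalized counts in tet-LIN28B small Pre-B cells, against 4214, 4208 and 4978 in control cells (log2 fold change -0.10 ± 0.14, adjusted p = 0.667), and tet-LIN28B replicate 3 was the highest of the 6 libraries. Foxo1 stood at 24530, 25710 and 25916 in tet-LIN28B cells and 23374, 26023 and 24549 in control cells (0.04 ± 0.06, adjusted p = 0.685).

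In these bulk samples, fewer cells of a type and less RNA per cell cannot be told apart. Markers of other cell types were measured in the same small Pre-B libraries. The 12 myeloid markers, of cells that make PU.1, summed to 41.3 to 41.7 RPM in tet-LIN28B small Pre-B cells and 47.1 to 85.5 in control cells. Itgam made up most of the tet-LIN28B sums, at 28.3 to 30.9 RPM, against 30.2 to 49.0 in control cells. The highest control sum was that of control 2, and Mpo reached 33.6 RPM in control but 0.285 in tet-LIN28B cells. The 5 plasmacytoid dendritic cell markers, of a cell type rich in Irf8 and Spib, summed to 14.4 to 17.1 RPM in tet-LIN28B cells and 15.4 to 20.0 in control cells. Cox6a2 made up most of these sums, at 13.6 to 16.1 RPM in tet-LIN28B and 13.7 to 18.9 in control cells. Of the others, all low, Pacsin1 was called higher and Ccr9 lower. Klk1 was at 0 in both genotypes and Siglech was at 0 in every tet-LIN28B library. The other dendritic cell markers overlapped, at 1.13 to 1.42 RPM in tet-LIN28B cells and 0.9396 to 1.59 in control cells. The summed 5 NK cell markers were low but did not overlap, at 3.26 to 5.57 RPM in tet-LIN28B cells and 1.72 to 2.15 in control cells. Nearly all of the tet-LIN28B sum was Prf1, called higher, at 3.21 to 5.57 RPM against 0.469 to 1.69 in control cells. Klrb1c went the other way, at 0 to 0.118 RPM in tet-LIN28B and 0.250 to 0.456 in control cells. Nkg7 reached 0.0588 RPM in tet-LIN28B and 0.844 in control cells. Ncr1 was at 0 in every tet-LIN28B library and Gzma at 0 throughout. Erythroid markers, 7 of 8 listed, did not overlap either, at 4.10 to 4.93 RPM in tet-LIN28B cells and 1.43 to 2.90 in control cells, with Hba-a2 and Hbb-bs called higher. Plasma cells are rich in Irf4. The 5 markers of mature B or plasma cells summed to 200.4 to 214 RPM in tet-LIN28B cells and 318 to 356 in control cells. The mature B gene Ighd was most of the tet-LIN28B sum, at 137 to 147 RPM. That fall lay in Sdc1, at 53.3 to 59.7 RPM in tet-LIN28B cells and 164 to 203 in control cells, while Fcer2a and Cr2 were called higher, and Ighd and Jchain overlapped. The plasma cell gene Jchain was low, at 0.207 to 0.373 RPM in tet-LIN28B and 0.134 to 0.650 in control cells. The part of these cell types in the Spi1, Irf8 and Irf4 results was not tested.

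In large Pre-B cells, the cycling cells that have just expressed a pre-B cell receptor, none of the 10 factors passed, where 8 of 14155 genes (0.0565%) did. By edgeR and DESeq2 on the recovered reads none of the 10 passed either. At an unadjusted limma p under 0.05 there were 3 factors, Ebf1, Ikzf3 and Spi1, against 6.57% of all genes. The fold changes of 9 of the 10 were positive, with a median of 0.32 on the log2 scale, against -0.02 over all genes. The share of positive signs over all genes was not counted. Such a median was not particular to the 10 factors. Among the lists of regulated genes and partner factors described below, medians here ran between -0.41 (3 genes repressed by BACH2) and 0.32 (24 partner transcription factors). The 15 genes supported by FOXO1 gave 0.28. Irf4 fell marginally under 0 (-0.02) when large Pre-B control 3 was left out, and Foxo1 likewise (-0.01) without control 1.

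Spi1 was the factor whose large Pre-B libraries did not overlap, as was true of 6.46% of all genes. It measured 1558, 2150, 1200 and 1666 normalized counts in tet-LIN28B cells and 994, 1131 and 1053 in control cells, which gave 0.60 ± 0.23 on the log2 scale (SE, adjusted p = 0.747). Ebf1 had 6933, 6883, 6536 and 5801 in tet-LIN28B cells, against 2449, 6514 and 4589 in control cells. Its controls were widely spread and 1 of them, control 2, lay within the tet-LIN28B range, giving 0.64 ± 0.28 (SE, adjusted p = 0.747). Ikzf3 had 2378, 2260, 1436 and 1296 in tet-LIN28B cells, against 1472, 1015 and 1094 in control cells (0.59 ± 0.26, adjusted p = 0.747). Markers of myeloid cells, which also express Spi1, summed to 10.8 to 19.6 RPM in tet-LIN28B large Pre-B cells and 17.5 to 413 in control cells. The Spi1 fold change was positive with each library left out in turn, at 0.47 to 0.75.

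The remaining large Pre-B values overlapped. Spib had 13502, 13499, 7693 and 12058 normalized counts in tet-LIN28B cells, against 11040, 9482 and 5167 in control cells (log2 fold change 0.48 ± 0.29, adjusted p = 0.754). Irf8 stood at 4719, 6084, 4229 and 5021 in tet-LIN28B cells and 4565, 5872 and 4626 in control cells (-0.01 ± 0.21). Bach2, the most changed factor in small Pre-B cells, had 6925, 7040, 3859 and 4352 in tet-LIN28B cells, against 5546, 4932 and 4068 in control cells (0.15 ± 0.25, adjusted p = 0.907). Control 3 gave the lowest value of Pax5, Irf4 and Spib among the 7 libraries, and its mean correlation with the other libraries of the stage was the lowest (r = 0.922).

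In large Pro-B cells, the IL-7 dependent cells that rearrange the heavy chain, none of the 10 factors and none of the 13776 genes (0%) passed by limma. At an unadjusted p under 0.05 the count was 0 of 10 factors, against 2.86% of all genes, and no factor passed by edgeR or DESeq2. All 10 overlapped between genotypes, where 1.3% of genes did not. The fold changes ran between -0.25 ± 0.20 for Irf8 and 0.62 ± 0.41 for Spib on the log2 scale. Spib had 3949, 3112, 1846, 1084 and 2238 normalized counts in tet-LIN28B cells, against 2664, 1439, 1558 and 748 in control cells. Irf8 had 5333, 5192, 3326, 3667 and 4548 in tet-LIN28B cells, against 5583, 5873, 5071 and 4266 in control cells.

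The large Pro-B libraries were widely spread within each genotype. Tet-LIN28B replicate 4 had the lowest Pax5 (526 normalized counts, against 1140 to 1609 in the other tet-LIN28B libraries) and the lowest Irf4 (384, against 1297 to 1986). The same library had the highest Ebf1 (18427, against 7285 to 10321). Control 4 had the highest Ebf1 among controls (17442) and the lowest Ikzf3 (81.6) and Spib (748). These 2 libraries had the lowest mean correlations with the other large Pro-B libraries (r = 0.884 and 0.877).

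**Figure D2:**
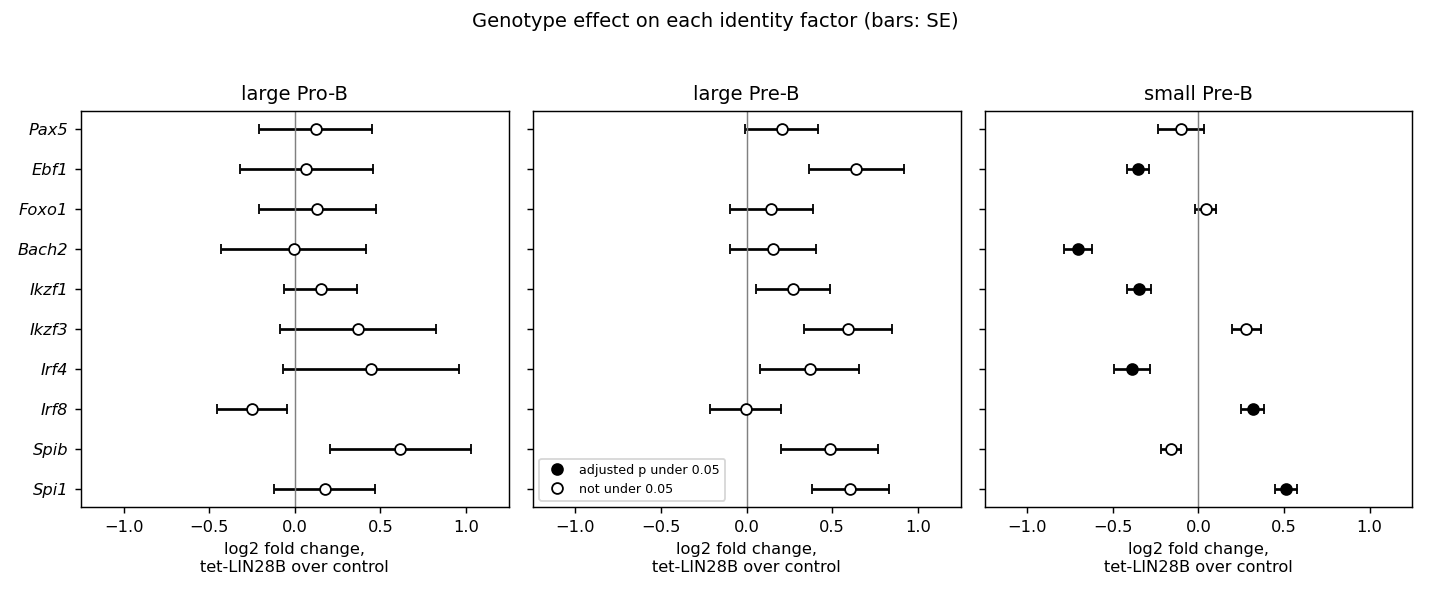
Log2 fold change of tet-LIN28B over control for each identity factor at each stage, with the SE of the limma fit as bars. Filled points passed at an adjusted p under 0.05, which 6 factors did in small Pre-B cells and none in the large cells, where the bars are wider.

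Whether the genotype effect differed between stages was tested directly over 11830 genes. None of the 10 factors passed in any contrast, against 0.0169% of genes for small minus large Pre-B cells, 0.0338% for small Pre-B minus large Pro-B cells and 0% for large Pre-B minus large Pro-B cells. At an unadjusted limma p under 0.05 there were 1, 1 and 0 factors, against 2.42%, 4.79% and 4.4% of genes. These were Ikzf1 between small and large Pre-B cells (difference of log2 fold changes -0.66 ± 0.26, adjusted p = 0.999) and Irf8 between small Pre-B and large Pro-B cells (0.57 ± 0.24, adjusted p = 0.948). For Bach2 the small minus large Pre-B difference was -0.87 ± 0.52 (SE, adjusted p = 0.999). A pass in small Pre-B cells and none in the large cells was thus not shown to be a difference between stages.

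The balance of 3 pairs of related factors was computed within each library as a log2 ratio of reads per kilobase, which no scaling of the library can alter. The pairs were chosen after their values were seen, both members having passed only for Irf4 and Irf8, so the ratios describe the small Pre-B values above on another scale and carry no test. Irf4 over Irf8 was -0.53, -0.23 and -0.60 in tet-LIN28B small Pre-B cells and 0.45, 0.14 and 0.17 in control cells. Per kilobase, the higher of the pair was thus Irf8 in each tet-LIN28B library and Irf4 in each control library. Which gene is higher rests on the exon lengths, 4903 bases for Irf4 and 7055 for Irf8. In RPM, Irf8 was higher in the control libraries too, at 512, 559 and 546 against 485, 427 and 428 for Irf4. The shift between genotypes does not depend on the lengths. Spib over Spi1 was 3.21, 3.27 and 3.14 in tet-LIN28B cells, against 3.96, 3.84 and 3.83 in control cells. Ikzf3 over Ikzf1 was -1.20, -1.02 and -0.93 in tet-LIN28B cells, against -1.71, -1.78 and -1.54 in control cells. No pair overlapped between genotypes, and the shifts were -0.70, -0.67 and 0.63 on the log2 scale. In large Pro-B and large Pre-B cells every pair overlapped between genotypes.

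**Figure D3:**
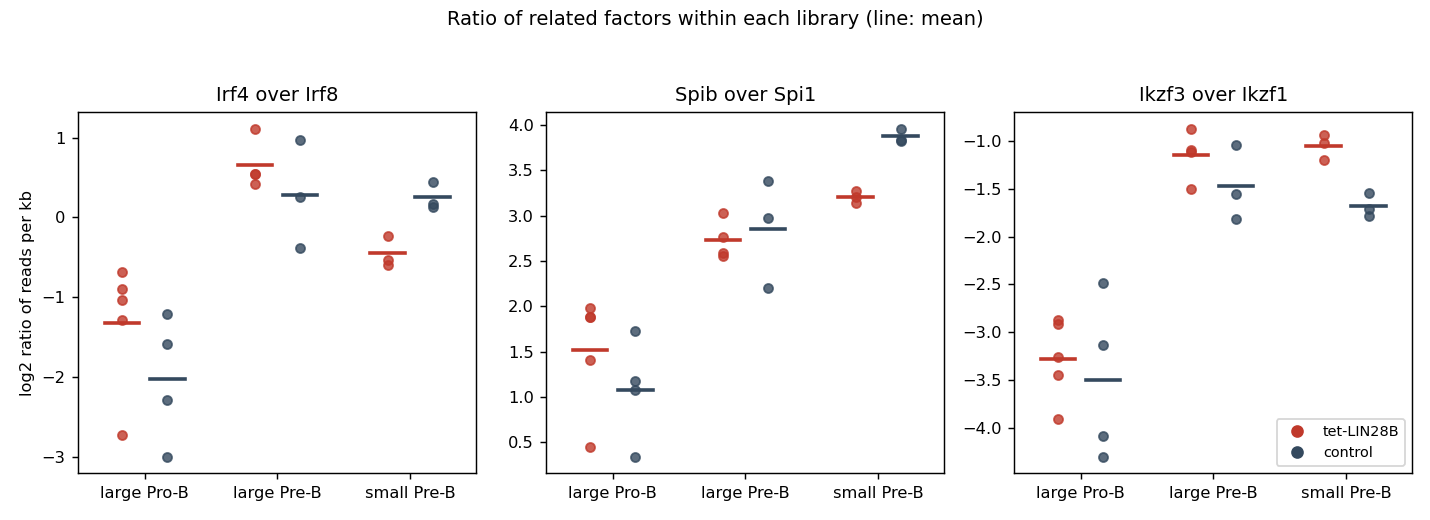
Log2 ratio of reads per kilobase of 2 related factors in each library, by stage, with tet-LIN28B left of control and a line at the group mean. In small Pre-B cells the groups are apart for all 3 pairs, with Irf4 over Irf8 averaging -0.45 in tet-LIN28B and 0.25 in control cells.

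Across the stages the factors followed distinct courses, described here in RPM without a test, since each stage was normalized on its own. Small Pre-B cells came from other mice than the large cells. At the step to large Pre-B cells, 6 factors in each genotype lay above all large Pro-B libraries, where 5.35% of genes did so in tet-LIN28B and 9.75% in control cells. These were Ikzf1, Ikzf3, Irf4, Spib, Spi1 and Bach2. The steepest was Ikzf3, which averaged 109 RPM in tet-LIN28B large Pre-B cells, 9.31 times its large Pro-B level of 11.7, and 76.2 in control large Pre-B cells, 8.06 times 9.46. Spib stood 5.08-fold higher in tet-LIN28B and 6.003-fold higher in control cells, and Irf4 4.23-fold and 4.96-fold higher.

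Within the 7 mice that gave both populations, 7 factors were higher in large Pre-B than in large Pro-B cells of every mouse. For Ikzf3 the within-mouse log2 ratios ran between 2.33 and 4.00, with a median of 3.12, and for Spib between 1.88 and 3.84, with a median of 2.12. Pax5 was among the 7, but by a median of only 0.32. Ebf1 and Foxo1 were lower in large Pre-B cells of all 7 mice, with medians of -0.55 and -0.74. Irf8 was higher in 5 mice and lower in 2. The share of all genes with the same direction in every mouse was not counted, so these counts have no background beside them.

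**Figure D4:**
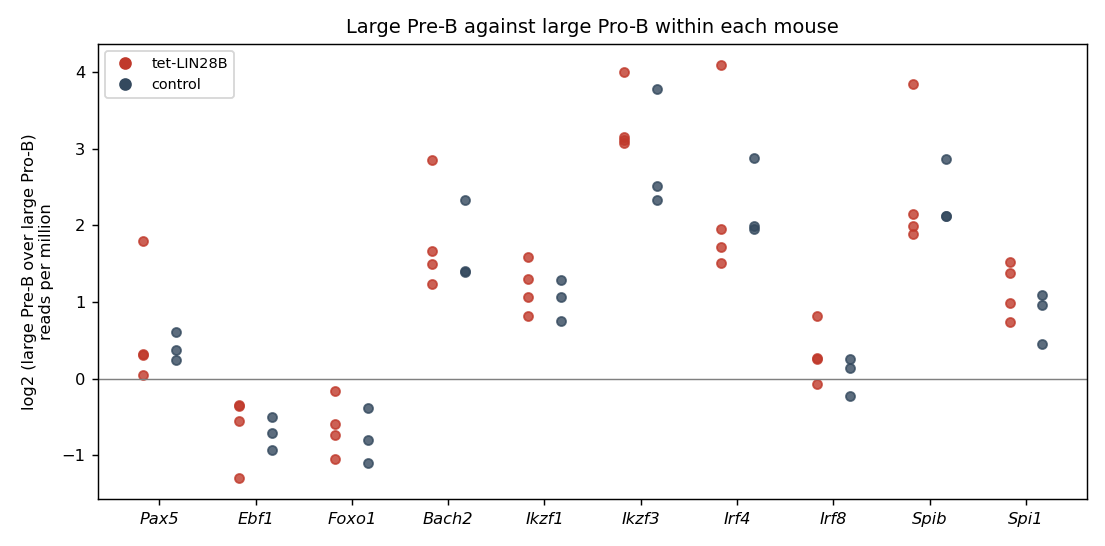
Log2 ratio of RPM in large Pre-B over large Pro-B cells of the same mouse, 1 point a mouse (4 tet-LIN28B, left, and 3 control, right, for each factor). Ebf1 and Foxo1 lie under 0 in all 7 mice and Ikzf3, Irf4, Spib and Bach2 lie well above it.

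At the step to small Pre-B cells, 9 of the 10 factors in tet-LIN28B and all 10 in control cells lay above every large Pre-B library, where 39.6% and 42% of genes did. Foxo1 took the largest step, to 714 RPM in tet-LIN28B small Pre-B cells, 8.38 times the large Pre-B level, and to 711 in control cells, 8.35 times that level. Ebf1 stood 2.705-fold higher in tet-LIN28B and 4.68-fold higher in control cells, and Bach2 2.20-fold and 3.896-fold higher. Irf4 was the exception in tet-LIN28B cells, averaging 335 RPM in small and 329.5 in large Pre-B cells with overlapping libraries, while control cells averaged 447 and 281 without overlap. With TMM factors over all 22 libraries in place of totals, every fold of the factors at this step was smaller. That of Foxo1 was 7.39 in tet-LIN28B and 7.35 in control cells, and that of Irf4 in tet-LIN28B cells was 0.898. Pax5 at this step and Ebf1 at the first step then also overlapped in tet-LIN28B cells. Thus 30 in place of 32 of the 40 comparisons between stages showed no overlap. Over all genes the share without overlap was 13.9% in tet-LIN28B and 18.4% in control cells at the first step, and 65.3% and 70.7% at the second.

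**Figure D5:**
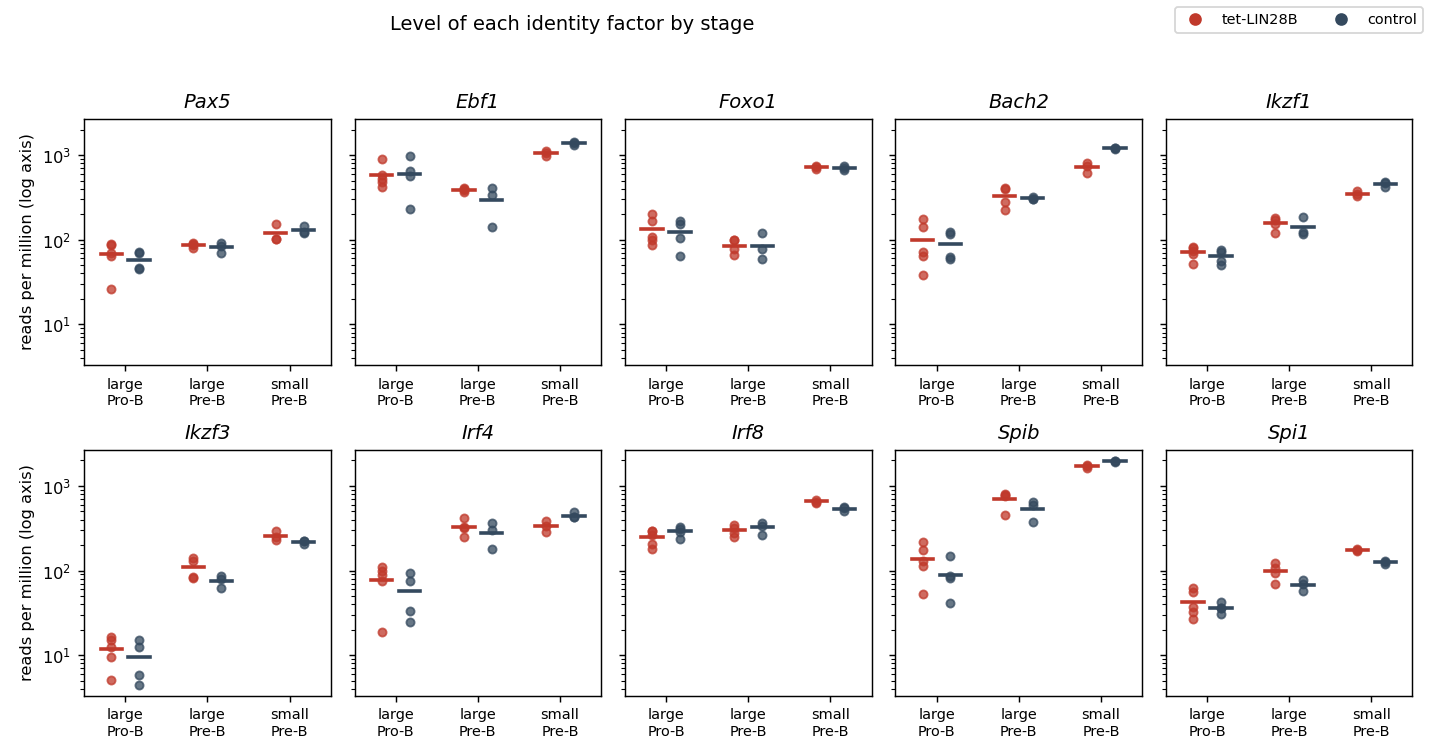
RPM (log axis) of each identity factor in every library, by stage in order of development, with tet-LIN28B left of control and a line at the group mean. Foxo1 steps up between large and small Pre-B cells to 714 in tet-LIN28B and 711 in control cells, and Ikzf3 climbs from the lowest level at the earliest stage.

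Per kilobase of exon, Ebf1 was the most abundant of the 10 in large Pro-B cells, at 59.6 RPM per kilobase in tet-LIN28B and 61.7 in control cells, though its libraries overlapped those of the next factor, Spib in tet-LIN28B and Irf8 in control cells. In large Pre-B cells Spib led, at 243 in tet-LIN28B and 187 in control cells, and in small Pre-B cells it led at 596 and 681, each time clear of the next factor. The order below it differed between genotypes in small Pre-B cells. Irf8 ranked 3 of 10 in tet-LIN28B cells (92.8), clear of its neighbours, and 7 in control cells (76.4), where it overlapped Ikzf1 and Foxo1. Bach2 ranked 5 in tet-LIN28B cells (72.8), where it overlapped Foxo1, Irf4, Spi1 and Ikzf1. In control cells Bach2 ranked 3 (121), clear of its neighbours. Pax5 was the least abundant of the 10 in small Pre-B cells, at 13.4 and 14.6.

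The genes whose levels ran most like each factor over the 22 libraries are given as a description, since the points share stage, depth and, for 7 mice, the animal. The highest Pearson correlation of log2(RPM + 1) among 9734 genes was 0.990 for Spib with Serinc5, followed by 0.987 with Ighm, the heavy chain of IgM. Ikzf3 ran closest to Fcrla (r = 0.985), Bach2 to Slamf9 (0.980), Ikzf1 to Dtx1 (0.976) and Foxo1 to the predicted gene Gm20402 (0.985) and to Mcl1 (0.971), a survival gene. Irf4 ran closest to Plekha2 (0.968), Irf8 to Ptprcap (0.968), Spi1 to Srpk3 (0.967) and then Cd74 (0.966), the invariant chain of MHC class II. Pax5 ran closest to Man2a1 (0.947), and Ebf1 to Smad7 (0.931).

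Genes that these factors are known to control were then counted in small Pre-B cells, beside the same background of 14.4%. None of them passed in the large cells. Of 21 tested genes activated by PAX5 and EBF1, 8 rose and 1 fell, while Ebf1 itself was lower. Tnfrsf13c, the BAFF receptor gene, averaged 14488 ± 1048 normalized counts in tet-LIN28B and 8660 ± 838 in control cells (log2 fold change 0.74 ± 0.08, adjusted p = 0.00047). Bst1 (0.65) and the kinase gene Blk (0.47) were higher too, and Cd72, an inhibitory receptor gene, was lower at 41654 ± 1809 against 61598 ± 1195 (-0.57 ± 0.06, adjusted p = 0.00031). Of 6 tested genes repressed by PAX5, 1 rose and 2 fell. Sdc1, a plasma cell marker that was also read in the large cells, fell to 1989 ± 126 in tet-LIN28B cells, against 6444 ± 700.4 in control cells (-1.69 ± 0.09, adjusted p = 1.5e-05). In large Pro-B cells Sdc1 stood at 40.0 to 50.7 RPM in tet-LIN28B and 40.4 to 67.1 in control cells. In small Pre-B cells Prdm1 fell by 1.14 and Flt3 rose by 1.147 on the log2 scale, the Flt3 call being lost with any 1 library left out.

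Of 15 tested genes supported by FOXO1, 3 fell and none rose, with Foxo1 itself overlapping between genotypes. Il7r, the IL-7 receptor gene, averaged 10353 ± 1554 in tet-LIN28B and 16919 ± 367 in control cells (log2 fold change -0.72 ± 0.09, adjusted p = 0.0011) and Rag2 fell by 0.21 on the log2 scale. Leaving out tet-LIN28B replicate 1 or any control left 1 of these 3 calls. Of 8 tested genes repressed by Ikaros and Aiolos, 2 rose and none fell. Myc averaged 408 ± 82.1 in tet-LIN28B and 51.1 ± 22.2 in control cells (3.03 ± 0.29, adjusted p = 0.00023), and Ccnd2, a cyclin gene, was higher by 0.75 (adjusted p = 0.0432). Without tet-LIN28B replicate 1 or 3 or control replicate 1 or 2, and with rescaled totals, 1 of the 8 rose. In the main fit the other 6 genes did not pass. The surrogate light chain genes Igll1, Vpreb1 and Vpreb2 gave 0.24, 0.12 and 1.51, and Ccnd3 gave 0.12. Dntt was higher by 1.27 and Kit lower by 1.82 on the log2 scale, both without overlap between genotypes. Kit was low, at 2.72 to 33.8 normalized counts in tet-LIN28B and 42.8 to 56.4 in control cells.

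Of 5 tested genes under the IRF and ETS factors, the light chain constant genes and Cxcr4, 1 rose and 1 fell. Igkc averaged 79864 ± 4212 in tet-LIN28B and 64866 ± 3221 in control cells (log2 fold change 0.30 ± 0.07, adjusted p = 0.0139), and was not called without control replicate 1 or 3. Iglc2 averaged 12259 ± 2210 in tet-LIN28B and 28998 ± 5683 in control cells (-1.24 ± 0.15, adjusted p = 0.00079), and its reads may be shared with the near-identical lambda constant genes. Of 7 tested genes activated by PU.1 and SPI-B, 1 rose, the Blk named above. Of 3 tested genes repressed by BACH2 none rose and Prdm1, which encodes the plasma cell regulator BLIMP-1, fell to 153 ± 67.9 in tet-LIN28B cells, against 316 ± 12.3 in control cells (adjusted p = 0.0275). The Prdm1 call was lost without tet-LIN28B replicate 1 or any control.

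Among 23 tested partner transcription factors of early B cells, in small Pre-B cells 3 were higher and 3 lower. Pou2f2, which encodes OCT2, averaged 3868 ± 263 in tet-LIN28B and 2035 ± 125 in control cells (log2 fold change 0.93 ± 0.08, adjusted p = 0.00014), and Bcl11a was raised by 0.92 ± 0.09 (adjusted p = 0.00028). Sox4 and Myb had log2 fold changes of -0.43 ± 0.08 and -0.40 ± 0.07 (adjusted p = 0.0063 and 0.0064).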

How the data were processed

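RNA of sorted bone marrow B cell precursors was taken up in RNAzol and made into libraries with SMART-Seq v4 and Nextera XT, and sequenced on NextSeq and NovaSeq instruments. The labels and methods used here do not tie libraries to an instrument. The submitters' processing notes name STAR 2.7.1, RSEM 1.28, DESeq2 and the mm10 build. The deposited signal of a gene is a normalized count, which the authors made by dividing counts by a size factor for each library, in 1 table per stage. The authors' deposited tables of fold changes and p-values hold their own comparisons and were not used.

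Dividing by the smallest value of a library turned 100% of deposited values of the large cells and 99.9994% of those of small Pre-B cells into whole reads, to a tolerance of 0.1, and so gave the depth of each library. A value after ± is the SD over libraries where it follows a group mean. After a log2 fold change, or a difference of these, it is the SE of the limma fit. Both include variation between mice. Because normalized counts are not counts, genotypes were compared within a stage with limma 3.58.1 (R 4.3.3, eBayes with trend). The scale was log2(normalized count + 1), and genes needed at least 10 in as many libraries as the smaller group. P-values had Benjamini-Hochberg adjustment over all genes tested, with calls under 0.05. Folds on this scale understate changes of low genes. Differences between stages came from 1 model in which mouse was a random effect (correlation 0.278). Levels per kilobase used exon lengths of GENCODE M21, and promoters came from RefSeq GRCm38.p6. A first search also held 4 motifs of 10 letters, which were left out after their matches were seen. Libraries of a stage came from separate mice.

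Alternatives were a pseudocount of 5, no filter, rescaled totals, a replicate block, edgeR 4.0.16 and DESeq2 1.42.0 on recovered reads, and leaving out each library. The factors and gene lists were chosen with earlier results of these data known, the lists from general knowledge. All 10 factors are described, and of each list up to 4 called genes per stage with the smallest adjusted p and, for each factor, the 2 genes with the highest correlation were eligible to be named. Igll1, Vpreb1 and the values of genes that did not pass were added after their values were seen. Some genes that these rules make eligible are not reported here.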

Additional observations from a re-analysis of the deposited data

Results flagged for a closer look

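Across 30 groups of 4 or 5 libraries (each factor in the tet-LIN28B and control libraries of large Pro-B cells and the tet-LIN28B libraries of large Pre-B cells), 1 library stood apart from its own group. Ebf1 in large Pro-B tet-LIN28B replicate 4 was 18427 normalized counts, against 10321 in the next highest library of that group, a gap of 0.728 of the group's range. Chance puts about 1 in 20 such groups past this limit. The same library was lowest for Pax5 and Irf4, and control 4 of the same stage had an Ebf1 value of 17442.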

How the results depend on the processing

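The 6 factors called in small Pre-B cells were called under each of the 6 settings that kept every library, with Ikzf3 added by DESeq2 and Spib by rescaled totals. With 1 library left out the count was 4 to 6, the lowest without control replicate 1. Bach2, Spi1, Ebf1 and Ikzf1 were called under all 12 alternatives, Irf8 under 11 and Irf4 under 7. In large Pro-B and large Pre-B cells and in the tests between stages 0 factors were called under every alternative run. Replicate numbers did not pair the libraries (correlations of deviations -0.19 to 0.43 in large Pro-B, -0.06 to 0.16 in large Pre-B and -0.11 to 0.02 in small Pre-B cells), and a replicate block gave 0, 0 and 6 factors and 0, 2 and 1758 genes called.

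The number of all genes called moved more than the factors did, and the cause was not tested. In large Pro-B cells it was 4 with DESeq2 and 0 to 1 with a library left out, against 0. In large Pre-B cells it was 15 with no filter, 1 with rescaled totals, 0 with edgeR, 79 with DESeq2 and 0 to 23 with a library left out, against 8, and in small Pre-B cells 1758 to 2700 under the other settings and 1016 to 1965 with a library left out, against 2107. Rescaled totals moved the median of all genes in large Pre-B cells to -0.12 on the log2 scale, and no filter moved it to -0.15 there and to 0.18 in large Pro-B cells. Signs near 0 in the large cells were not stable. In large Pro-B cells Ebf1 was -0.045 by edgeR and -0.020 by DESeq2, and Bach2 was 0.10 with the replicate block, 0.092 by edgeR and 0.12 by DESeq2. Irf8 in large Pre-B cells was 0.0057 by edgeR. With a library left out, large Pro-B log2 fold changes ran between -0.011 and 0.39 for Pax5, -0.33 and 0.35 for Ebf1, -0.14 and 0.31 for Foxo1 and -0.27 and 0.24 for Bach2, and large Pre-B ones between -0.012 and 0.31 for Foxo1, -0.016 and 0.65 for Irf4 and -0.10 and 0.11 for Irf8.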
